A study of Mus musculus with 12 samples.

Results

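The immunoproteasome and the machinery that loads peptides on major histocompatibility complex (MHC) class I molecules were followed across mouse liver libraries through 10 genes. These were Psmb8, Psmb9, Psmb10, Psme1, Psme2, Tap1, Tap2, Tapbp, B2m and Nlrc5, chosen as listed symbols, 10 of the 22609 gene symbols counted in each library. All 10 passed the filter on low counts, which left 13255 genes for testing. The proteasome is a barrel-shaped protease whose active subunits can be exchanged for the immunosubunits encoded by Psmb8, Psmb9 and Psmb10, which changes the peptides it cuts. Those peptides are pumped into the endoplasmic reticulum by the TAP1 and TAP2 transporter, held close to empty class I molecules by tapasin, and displayed on the cell surface by a heavy chain paired with beta-2-microglobulin. In liver, hepatocytes carry little of this machinery at rest compared with leukocytes, and interferon-gamma is its textbook inducer.

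Total RNA of liver from male C57BL/6 mice aged 8 weeks was sequenced after ribosomal RNA depletion. The mice were TRIM21 wild type (TRIM21+/+), knockout (TRIM21-/-) or, in 1 library, labelled heterozygote (TRIM21+/-). TRIM21 is a cytosolic ubiquitin ligase and antibody receptor, and the labels do not say how its allele was made or whether its loss was limited to some cells. Each mouse received either 200 mg/kg of the liver carcinogen diethylnitrosamine (DEN) in PBS or PBS alone into the peritoneum, and liver was taken 48 h later. The groups were PBS wild type (PBSWT, 3 libraries), PBS knockout (PBSKO, 3), DEN wild type (DENWT, 3), DEN knockout (DENKO, 2) and the DEN library labelled heterozygote (DENHET, 1). The labels number the libraries but do not state that each came from its own animal, so each p-value reflects only how these samples scatter, which may be in part technical.

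Gene counts totalled 17303124 to 23059252 per library. Trim21 had 93 to 225 counts in the wild-type libraries and 3 to 5 in the knockout libraries. The library labelled heterozygote had 7 counts, near the knockout level and against its label; it entered no test and is shown for reference. Hepatocyte markers such as Alb and Apoa1 were abundant in every library, so the labelled tissue was borne out. The 7 matched markers summed to 85650 to 136700 CPM, the gene counts scaled to library size. Levels below are CPM scaled by the trimmed mean of M-values (TMM), given for libraries PBSWT_541, PBSWT_542 and PBSWT_545, PBSKO_154, PBSKO_544 and PBSKO_549, DENWT_307, DENWT_995 and DENWT_996, and DENKO_141 and DENKO_309 in that order. A gene is called where the Benjamini-Hochberg adjusted p of edgeR's quasi-likelihood test over all 13255 genes is under 0.05.

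Psmb9, Tap1, Psmb8, Tap2 and Tapbp lie on chromosome 17, in the mouse MHC. Psme1 and Psme2 lie on chromosome 14, Psmb10 and Nlrc5 on chromosome 8, and B2m on chromosome 2. Promoter windows of 250 bases before to 50 after a RefSeq start (assembly GRCm38.p6; the counts were made on mm9) were on hand for 8 of the 10 genes. Stretches of 3 of these are printed because they belong to the pair of genes that moved apart, to the most abundant gene and to an immunosubunit. The first is the whole interval between the starts of Psmb9 and Tap1, which are transcribed away from each other, chr17:34187331-34187555 on the plus strand, with the core of the CREB/ATF motif (TGACG) in capitals. The second lies 150 to 61 bases before the start of B2m, chr2:122147537-122147626 on the plus strand, with capitals, from left to right, for an interferon-stimulated response element (ISRE, TTTC, any 2 bases and TTTC, here on the minus strand), an NF-kappaB consensus and the CREB/ATF core. The third lies 120 to 61 bases before the start of Psmb8, chr17:34198075-34198134 on the plus strand, with the interferon-gamma activated sequence (GAS, TTCNNNGAA) in capitals.
Psmb9-Tap1 interval: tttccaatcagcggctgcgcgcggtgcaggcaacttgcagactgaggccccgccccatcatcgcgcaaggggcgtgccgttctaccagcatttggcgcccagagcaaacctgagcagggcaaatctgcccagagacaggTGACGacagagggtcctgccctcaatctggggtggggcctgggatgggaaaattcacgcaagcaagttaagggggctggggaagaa
B2m: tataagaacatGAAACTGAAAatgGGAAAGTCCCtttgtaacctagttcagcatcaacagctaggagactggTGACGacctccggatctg
Psmb8: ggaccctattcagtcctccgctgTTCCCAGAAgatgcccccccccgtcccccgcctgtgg

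Only 225 bases separated the RefSeq starts of Psmb9 and Tap1, and the single CREB/ATF core between them began 144 bases before the first and 86 bases before the second. Both strands of every window were searched. The ISRE occurred in 3.44% of all 32851 windows, and among these genes in those of B2m, 139 bases before the start, and Psme1, just after it. The GAS occurred in 8.3% of all windows and, of these genes, in that of Psmb8, 97 bases before the start. The NF-kappaB consensus, in 4.51% of all windows, was found for B2m. The CREB/ATF core, in 20.8% of all windows, was found for B2m, Psmb9, Tap1 and Psme2. The p53 half-site consensus, in 8.36% of all windows, had no match in the 9 windows of these genes. Such matches describe letters in a window and nothing about binding.

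The 10 genes differed widely in level at rest. Per kilobase of the principal GENCODE transcript, B2m stood at 2830 ± 137 CPM (SD, n = 3) in the PBS wild-type livers, far above Psme1 at 90.8 ± 7.5. Psmb10 at 46.4 ± 3.19 and Tapbp at 42.2 ± 2.52 lay within their spread of each other, followed by Psmb8 at 32.1 ± 2.78 and Psmb9 at 23.4 ± 0.992. Psme2 at 12.7 ± 0.463, Tap2 at 10.9 ± 0.815 and Tap1 at 10.1 ± 0.837 came next, the last 2 within their spread, and Nlrc5 was lowest at 3.08 ± 0.237. After DEN in wild type the per-kilobase level of Tap1, 26.1 ± 3.28, lay above those of Psmb10 (11.1 ± 1.91), Psmb8 (8.63 ± 0.996) and Psmb9 (8.17 ± 1.51), all of which it had been below at rest.

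**Figure D1:**
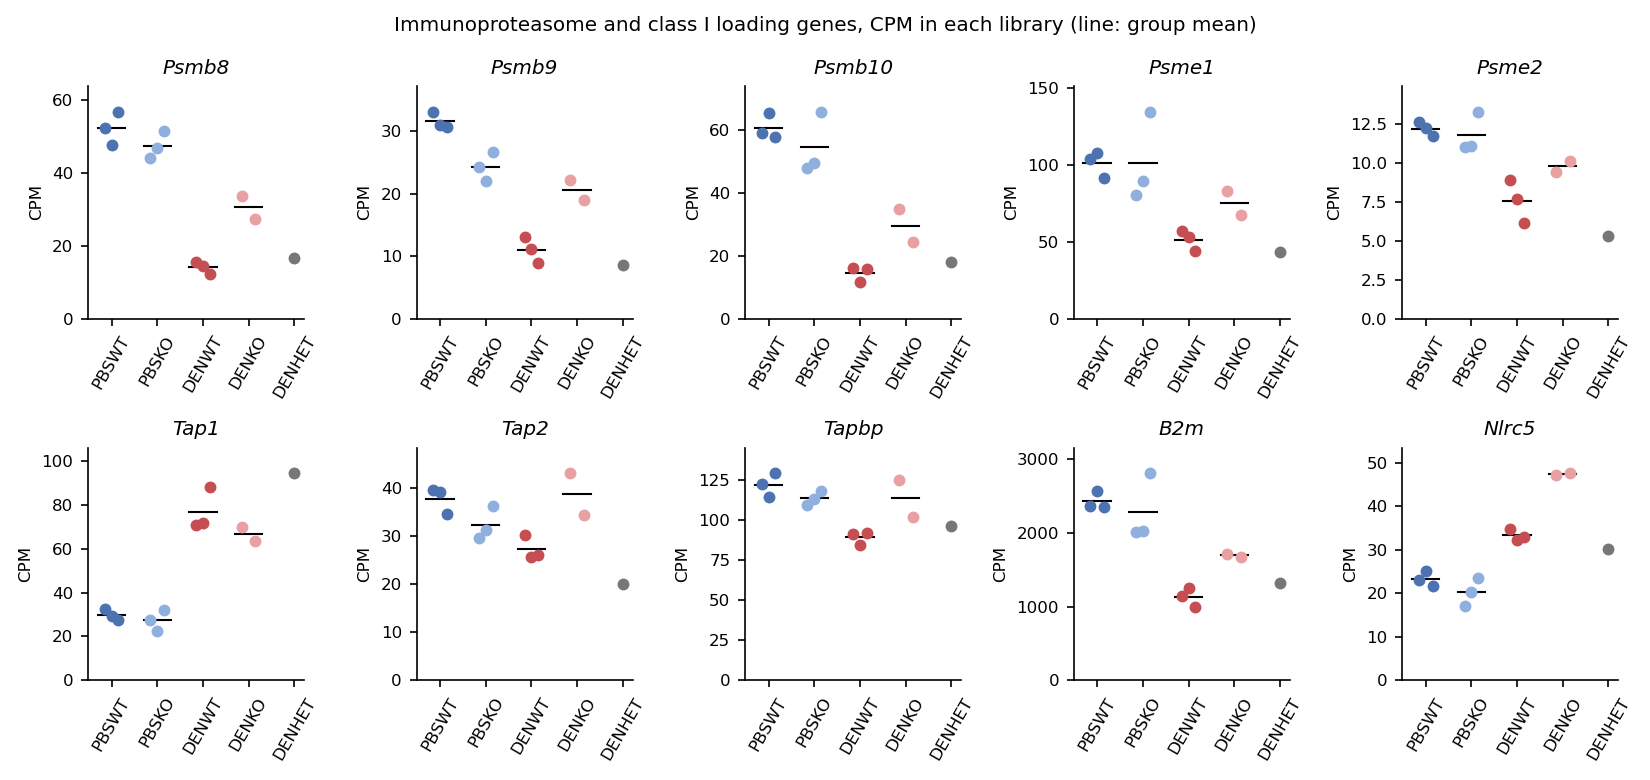
Level of each of the 10 genes in every library, in TMM-scaled CPM on a linear axis from 0; each point is a library, lines mark group means, and the grey point is the library labelled heterozygote. The 3 immunosubunits, Psme1, Psme2 and B2m are lower in the DEN wild-type than in the PBS wild-type libraries, while Tap1 and Nlrc5 are higher in the DEN than in the PBS libraries of both genotypes.

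In wild-type liver, DEN lowered 8 of the 10 genes and raised 2. The immunosubunits Psmb8, Psmb9 and Psmb10 fell the most, between 2.86-fold and 4.19-fold, while Tap1, which encodes one side of the peptide pump, rose 2.59-fold and Nlrc5 rose 1.43-fold. All 10 were called, in a comparison where 55.8% of all tested genes were called (29.2% higher and 26.7% lower), so that the number called is to be read against a high background. The median log2 fold change was -0.83 over the 10 genes and 0.04 over all tested genes. In knockout liver 4 of the 10 were called, 2 higher and 2 lower, where 22.7% of all genes were called (12% higher and 10.7% lower), with a median of -0.26 against 0.01 over all genes. In whole liver, fewer cells of a type and less RNA per cell cannot be told apart. Scaling by total gene counts in place of TMM shifted the median of all genes by 0.48 in wild type and 0.39 in knockout toward higher values after DEN, so smaller changes depend on it, as stated gene by gene below.

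Psmb8, the immunosubunit with chymotrypsin-like activity, stood at 52.4, 47.7 and 56.8 CPM in the PBS wild-type libraries and at 15.5, 14.3 and 12.3 in the DEN wild-type libraries. In the knockout it stood at 44.02, 46.9 and 51.4 CPM under PBS and at 33.8 and 27.3 under DEN. The DEN libraries lay below the PBS libraries in both genotypes without overlap, and the DEN knockout libraries above the DEN wild-type libraries. Psmb8 fell by 1.90 ± 0.13 (SE) on the log2 scale in wild type, 3.72-fold, with an edgeR adjusted p of 2.4e-07. In knockout it fell by 0.63 ± 0.15 (edgeR adjusted p 0.0075), a call that ended without DENKO_309 (adjusted p 0.12) and under total-count scaling (log2 fold change -0.24, adjusted p 0.19).

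Psmb9, the immunosubunit that replaces the caspase-like subunit, had 33.1, 30.99 and 30.7 CPM in the PBS wild-type and 13.03, 11.2 and 8.94 in the DEN wild-type libraries. Its knockout libraries had 24.3, 22.1 and 26.7 CPM under PBS and 22.2 and 19.1 under DEN. The wild-type groups were far apart, while in the knockout DENKO_141 reached the level of PBSKO_544. Psmb9 fell by 1.52 ± 0.15 (SE) on the log2 scale in wild type (edgeR adjusted p 3.1e-06). In knockout its log2 difference was -0.24 ± 0.16, with an edgeR adjusted p of 0.31.

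Psmb10, the trypsin-like immunosubunit, had 59.1, 65.7 and 57.9 CPM in the PBS wild-type libraries and 16.1, 11.6 and 15.8 in the DEN wild-type libraries, and 48.1, 49.8 and 65.9 and 34.98 and 24.4 in the same treatments of the knockout. Treated and untreated libraries did not overlap in either genotype. The fall of Psmb10 in wild type, by 2.07 ± 0.18 (SE) on the log2 scale or 4.19-fold, was the largest among the 10 genes (edgeR adjusted p 1.2e-06). In knockout Psmb10 fell by 0.88 ± 0.20 (edgeR adjusted p 0.006), and the call ended without DENKO_309 (adjusted p 0.11) and under total-count scaling (log2 fold change -0.49, adjusted p 0.058).

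The constitutive subunits that the immunosubunits replace moved little by comparison, within 0.36 on the log2 scale in wild type. Psmb5, the counterpart of Psmb8, had 37.7, 36.2 and 35.97 CPM in the PBS wild-type and 40.7, 50.6 and 49.8 in the DEN wild-type libraries. It rose by 0.36 ± 0.14 on the log2 scale at an edgeR adjusted p of 0.047, a call kept in 3 of 11 fits that each left out a library, with adjusted p from 0.023 to 0.13. Psmb6, the counterpart of Psmb9, differed by 0.28 ± 0.14 (adjusted p 0.12), and Psmb7, the counterpart of Psmb10, fell by 0.36 ± 0.11 (adjusted p 0.012). The fall of Psmb7 lost its call without PBSWT_542 (adjusted p 0.056) and had the other sign, uncalled, under total-count scaling. In knockout Psmb5 and Psmb6 were not called, and Psmb7 fell by 0.39 ± 0.12 (edgeR adjusted p 0.034), a call kept in 5 of the 11 fits.

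A ratio of the counts of 2 genes in the same library does not depend on the scaling. The 7 ratios named in this text were each compared between 5 DEN and 6 PBS libraries by an exact two-sided permutation test within genotype, whose smallest possible p is 0.005 over 200 arrangements. The log2 ratio of Psmb8 to Psmb5 was 1.35 lower after DEN (exact permutation p 0.005, adjusted 0.007), with differences of -2.25 in wild type and -0.46 in knockout and no overlap of DEN and PBS libraries. Psmb10 to Psmb7 was 1.11 lower (exact permutation p 0.005, adjusted 0.007), also without overlap, and Psmb9 to Psmb6 was 1.01 lower (exact permutation p 0.015, adjusted 0.0175) with overlap. The knockout differences for these pairs were -0.50 and -0.22 against -1.72 and -1.80 in wild type. Whether the ratios differed between genotypes was not tested.

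**Figure D2:**
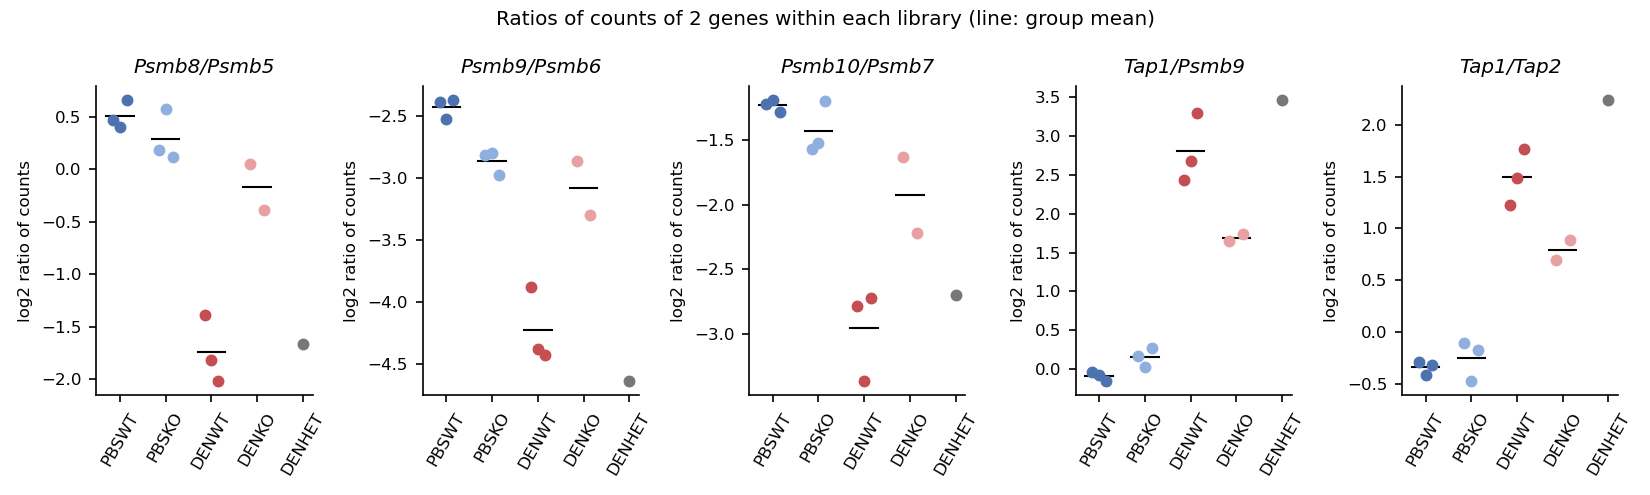
Log2 ratio of the counts of 2 genes within each library, 1 panel per pair with its own axis; points are libraries, lines group means, and the grey point is the library labelled heterozygote. In the 3 panels of immunosubunit over constitutive subunit the DEN wild-type libraries are lowest of the 4 tested groups, and Tap1 over Psmb9 is far higher in the DEN than in the PBS libraries.

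Expressed per kilobase, Psmb8 made up 44% of the sum of Psmb8 and Psmb5 in the PBS wild-type libraries (42.1% to 46.6%) and 14.3% in the DEN wild-type libraries (12% to 17.4%). The knockout means were 40.3% under PBS and 33% under DEN (29.6% to 36.4%). Psmb10 made up 27.3% of its pair in PBS wild type, 10.4% in DEN wild type, 24.7% in PBS knockout and 19.1% in DEN knockout. Psmb9 made up a smaller part of its pair, 9.9%, 3.09%, 7.52% and 6.58% in the same order. In all 3 pairs every DEN knockout library lay above every DEN wild-type library. These shares rest on mRNA and on transcript lengths of the later assembly, and say nothing of how many immunoproteasomes were assembled.

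Psme1 and Psme2 encode the alpha and beta subunits of PA28, the cap that opens the proteasome and is induced together with the immunosubunits. Psme1 had 104, 108 and 91.6 CPM in the PBS wild-type and 56.9, 53.4 and 43.7 in the DEN wild-type libraries, and fell by 0.98 ± 0.18 (SE) on the log2 scale (edgeR adjusted p 0.00053). In the knockout it had 80.7, 89.5 and 134 CPM under PBS and 83.2 and 67.4 under DEN, with overlapping groups and a log2 difference of -0.43 ± 0.20 (edgeR adjusted p 0.14). PBSKO_549 was the highest of all libraries for Psme1, as it was for Psmb10 and B2m.

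Psme2 had 12.6, 12.2 and 11.8 CPM in the PBS wild-type and 8.93, 7.69 and 6.16 in the DEN wild-type libraries, and fell by 0.69 ± 0.16 on the log2 scale (edgeR adjusted p 0.0028). Under total-count scaling its difference was -0.21, with an adjusted p of 0.25. Its knockout libraries had 11.1, 11.1 and 13.3 CPM under PBS and 9.43 and 10.2 under DEN, and the log2 difference was -0.27 ± 0.18 (edgeR adjusted p 0.3). Values of Psme2 are uncertain, since a near-identical copy, Psme2b, can share its reads.

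Psme3, which encodes the nuclear activator PA28-gamma, went the other way in wild type, with 75, 65.8 and 70.95 CPM under PBS and 87.9, 81.2 and 112 under DEN. It rose by 0.41 ± 0.13 on the log2 scale (edgeR adjusted p 0.017), a call that ended without DENWT_996 (adjusted p 0.082) or PBSWT_542 (adjusted p 0.065), and its knockout difference was -0.20 (adjusted p 0.35). Psme4, the gene of the activator PA200, was called in neither genotype. The log2 ratio of Psme1 to Psme3 was 0.79 lower after DEN (exact permutation p 0.03, adjusted 0.03), by -1.38 in wild type and -0.20 in knockout, with overlap of DEN and PBS libraries.

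Tap1 and Tap2 encode the 2 chains of the peptide transporter and moved in opposite directions in wild type. Tap1 had 32.4, 29.3 and 27.5 CPM in the PBS wild-type and 70.9, 71.8 and 88.2 in the DEN wild-type libraries, and 27.4, 22.4 and 32.1 and 69.8 and 63.6 in the knockout. Every DEN library was above every PBS library, with 94.4 CPM in the library labelled heterozygote. Tap1 rose by 1.37 ± 0.14 (SE) on the log2 scale in wild type (edgeR adjusted p 5.9e-06) and by 1.29 ± 0.16 in knockout (edgeR adjusted p 8.9e-05), and both calls held whichever of the 11 libraries was left out.

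Tap2 had 39.5, 39.1 and 34.5 CPM in the PBS wild-type and 30.2, 25.6 and 25.96 in the DEN wild-type libraries. It fell by 0.47 ± 0.13 on the log2 scale (edgeR adjusted p 0.0077), with no overlap. In the knockout it had 29.5, 31.2 and 36.2 CPM under PBS and 42.95 and 34.4 under DEN, which overlapped, and the log2 difference was 0.26 ± 0.14 (edgeR adjusted p 0.21). Under total-count scaling the wild-type difference was 0.01 and not called, and the knockout difference was called at 0.65. The log2 ratio of Tap1 to Tap2, free of scaling, was 1.44 higher after DEN (exact permutation p 0.005, adjusted 0.007), by 1.83 in wild type and 1.04 in knockout.

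The divergence between Tap1 and its neighbour Psmb9 was the widest of the 7 ratios. The count ratio of Tap1 to Psmb9 was 0.898 to 0.979 in the PBS wild-type and 1.02 to 1.21 in the PBS knockout libraries. After DEN it was 5.43 to 9.82 in wild type, 3.15 to 3.33 in knockout and 11.04 in the library labelled heterozygote. The log2 ratio was 2.22 higher after DEN (exact permutation p 0.005, adjusted 0.007), without overlap in either genotype. The starts of these genes face apart across the 225-base interval printed above, and in GENCODE their annotated spans overlap at the 5′ ends on opposite strands. The strand setting of the counting is not given in the sources used here, so reads in that overlap cannot be told apart. Within the immunosubunits the log2 ratio of Psmb8 to Psmb9 was 0.38 lower after DEN (exact permutation p 0.005, adjusted 0.007), by -0.37 in wild type and -0.40 in knockout.

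Tapbp, the gene of tapasin, had 123, 115 and 129 CPM in the PBS wild-type and 91.6, 84.3 and 92.1 in the DEN wild-type libraries and fell by 0.45 ± 0.12 on the log2 scale (edgeR adjusted p 0.0044). The knockout libraries had 109, 114 and 118 CPM under PBS and 125 and 102 under DEN, and edgeR gave a log2 difference of 0.00 ± 0.13 (adjusted p 1). The direction in wild type depended on the scaling, with an uncalled difference of 0.03 under total counts, where the knockout difference was called at 0.39.

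B2m, the light chain shared by all classical class I molecules, had 2371, 2566 and 2353 CPM in the PBS wild-type and 1143, 1259 and 999 in the DEN wild-type libraries. It fell by 1.10 ± 0.18 (SE) on the log2 scale, 2.14-fold (edgeR adjusted p 0.00016). In the knockout it had 2020, 2022 and 2811 CPM under PBS and 1721 and 1669 under DEN, which did not overlap. The log2 difference there was -0.43 ± 0.20, not called by edgeR (adjusted p 0.13) and called by DESeq2 (adjusted p 0.043).

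Nlrc5 encodes the transactivator of class I genes, whose textbook targets include B2m, Tap1 and Psmb9. It had 23.03, 25.2 and 21.7 CPM in the PBS wild-type and 34.8, 32.3 and 32.96 in the DEN wild-type libraries. In the knockout it had 17.1, 20.3 and 23.5 CPM under PBS and 47.3 and 47.6 under DEN, the highest of all libraries, and no DEN library overlapped a PBS library. Nlrc5 rose by 0.52 ± 0.13 (SE) on the log2 scale in wild type (edgeR adjusted p 0.0035) and by 1.22 ± 0.14 in knockout (edgeR adjusted p 4.4e-05). Both calls held whichever of the 11 libraries was omitted. In wild type Nlrc5 rose, as did Tap1, while B2m and the immunosubunits fell.

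**Figure D3:**
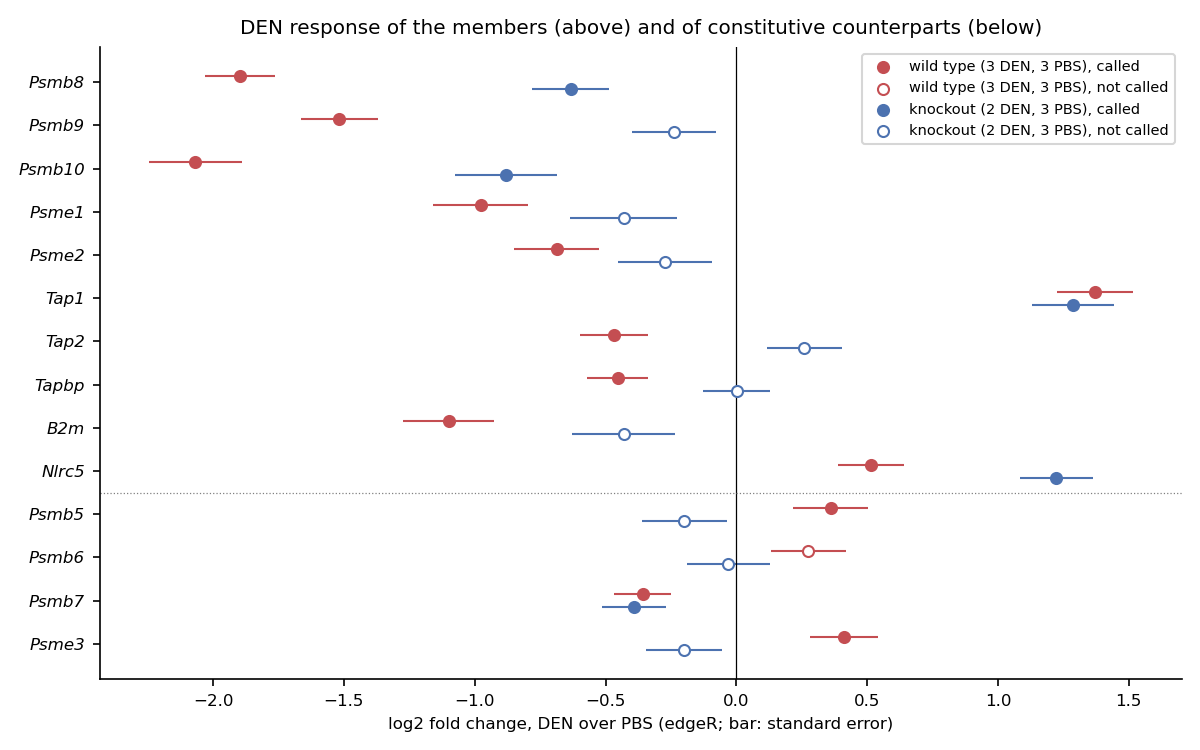
Log2 fold change of DEN over PBS by edgeR in wild type (red) and knockout (blue), with bars of 1 standard error; filled points are called and open points are not, and the dotted line parts the 10 genes from the constitutive counterparts Psmb5, Psmb6 and Psmb7 and the activator Psme3. Most wild-type points of the 10 genes lie further left than their knockout points, and the Tap1 points of both genotypes lie side by side near 1.37 and 1.29.

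Under PBS the genotypes were not told apart. None of the 10 genes was called between knockout and wild type by edgeR, DESeq2 or limma-voom, in a comparison where 0.00754% of genes were called, that single gene being Trim21. At an unadjusted edgeR p under 0.05 there was 1 of the 10, Psmb9, against 508 of all 13255 tested genes. Its knockout libraries were all below the wild-type libraries, with a log2 difference of -0.38 ± 0.14 (edgeR p 0.0206, adjusted p 1). The other 9 overlapped between genotypes, and their log2 differences ran from -0.22 for Tap2 to 0.01 for Psme1. The share of all tested genes without overlap was not counted, so the lack of overlap for Psmb9 is only a description.

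Under DEN, 6 of the 10 were higher in the knockout than in the wild type and none was lower, where 22.1% of all genes were called (12.2% higher and 9.85% lower). Their median log2 difference was 0.53, against 0.01 over all tested genes. DESeq2 called 7 higher and limma-voom 6, and neither called any lower. Psmb8 was 1.12 ± 0.14 (SE) higher on the log2 scale, 2.18-fold (edgeR adjusted p 0.00071). Psmb10 was 1.03 ± 0.19 higher (edgeR adjusted p 0.0041) and Psmb9 0.90 ± 0.16 higher (edgeR adjusted p 0.0035). B2m was 0.58 ± 0.19 higher (edgeR adjusted p 0.045), Nlrc5 0.51 ± 0.14 (adjusted p 0.02) and Tap2 0.50 ± 0.14 (adjusted p 0.024).

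The other 4 were not called. Their log2 differences were 0.55 for Psme1 (edgeR adjusted p 0.061), 0.35 for Tapbp (0.063), 0.37 for Psme2 (0.15) and -0.21 for Tap1 (0.36). There were 2 DEN knockout libraries, and most calls ended when DENKO_141 was left out. Psmb8 was then the only one of the 10 called (adjusted p 0.018). The log2 difference without DENKO_141 was 0.79 for Psmb9 (adjusted p 0.064), 0.75 for Psmb10 (0.088), 0.51 for Nlrc5 (0.13) and 0.56 for B2m (0.21), against 0.90, 1.03, 0.51 and 0.58 with it. That of Tap2 was 0.34 (0.28) against 0.50. Without DENKO_309, Nlrc5 (0.084) and B2m (0.12) were not called. Without DENWT_996, Nlrc5 (0.06), Tap2 (0.082) and B2m (0.12) were not called, and without DENWT_995 Tap2 (0.056) was not. The calls of Tap2 and Nlrc5 were each kept in 8 of the 11 fits. The call of B2m was kept in 2 of the 11 fits, with adjusted p from 0.028 to 0.21, and that of Nlrc5 ended under total-count scaling.

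The test of the difference between the DEN responses themselves, knockout minus wild type, uses the same libraries as the comparisons above and is no separate evidence. In it 5 of the 10 were called, all toward a higher value in the knockout, where 6.58% of all genes were called (4.07% higher and 2.5% lower). They were Psmb9 at 1.28 ± 0.22 (SE, log2; edgeR adjusted p 0.01), Psmb8 at 1.26 ± 0.19 (adjusted p 0.008), Psmb10 at 1.19 ± 0.26 (0.024), Tap2 at 0.73 ± 0.19 (0.041) and Nlrc5 at 0.71 ± 0.19 (0.041). B2m at 0.67 ± 0.26 (0.13), Psme1 at 0.55 ± 0.27 (0.22), Tapbp at 0.46 ± 0.17 (0.12), Psme2 at 0.42 ± 0.24 (0.3) and Tap1 at -0.08 ± 0.21 (0.84) were not. Without DENKO_141 none was called, with log2 differences of 1.10 for Psmb8 (adjusted p 0.06), 1.17 for Psmb9 (0.083), 0.91 for Psmb10 (0.16), 0.56 for Tap2 (0.24) and 0.71 for Nlrc5 (0.18), each still toward a higher value in the knockout. Over the 11 fits that each left out a library, the calls of Psmb8 and Psmb9 were kept in 10, that of Psmb10 in 8, that of Tap2 in 3 and that of Nlrc5 in 1.

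The library labelled heterozygote, which received DEN, had 16.6 CPM of Psmb8, 8.52 of Psmb9 and 18.0 of Psmb10, a sum of 43.1 CPM. That sum lay within the range of the DEN wild-type libraries, 37 to 44.6 CPM, although Psmb8 and Psmb10 were each above and Psmb9 below the 3 DEN wild-type libraries. It lay below that of the DEN knockout libraries, 70.8 to 90.9 CPM. The PBS libraries summed to 144 to 145 CPM in wild type and 116 to 144 CPM in knockout. Its Psmb9, Psme1 (43.2 CPM), Psme2 (5.35 CPM) and Tap2 (19.96 CPM) were the lowest and its Tap1 the highest of all 12 libraries. A single library allows no test.

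**Figure D4:**
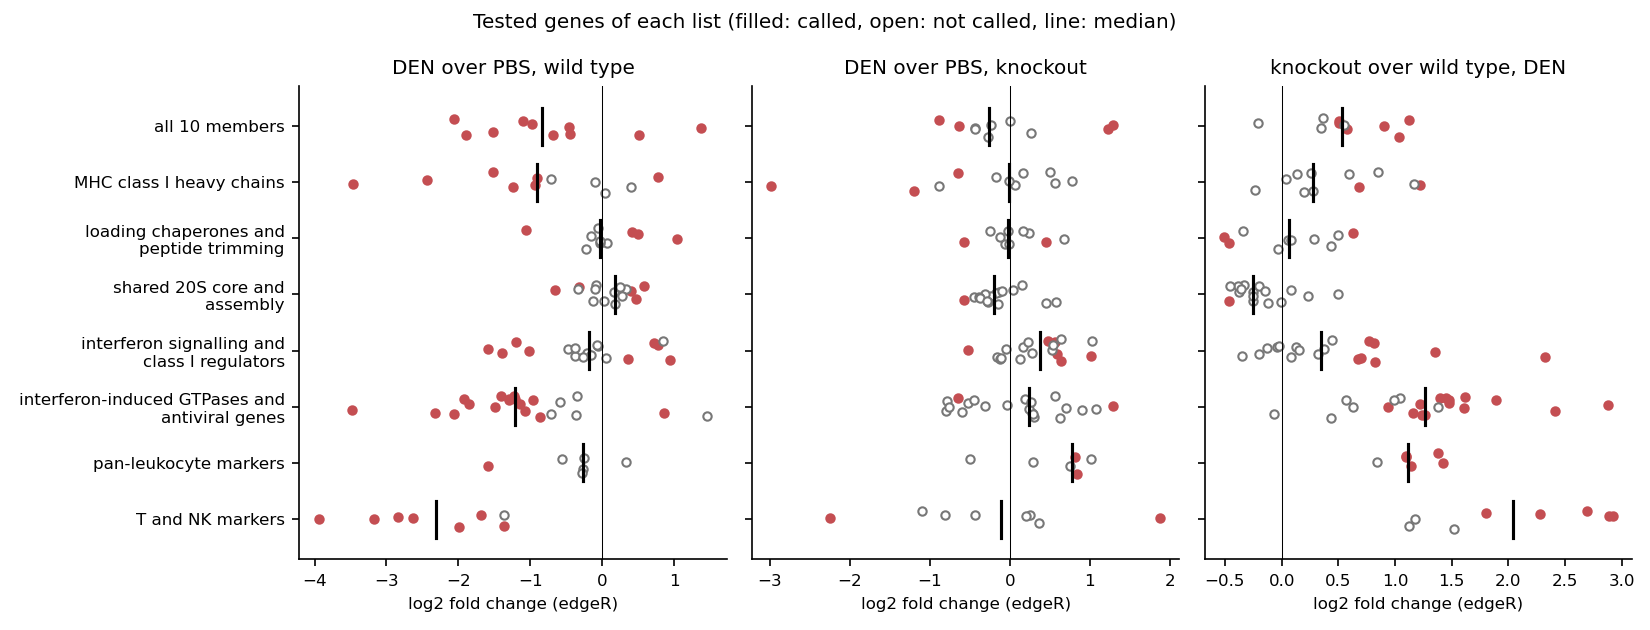
Log2 fold changes of every tested gene in 8 lists, by edgeR, for DEN over PBS in wild type, DEN over PBS in knockout, and knockout over wild type under DEN, with a separate axis for each comparison; filled points are called, open points are not, and bars mark the list medians. The interferon-induced and the T and NK cell lists lie mostly left of 0 in wild type, with medians of -1.21 and -2.31, and right of 0 for knockout over wild type, with medians of 1.26 and 2.04.

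Numbers called in this and the following lists are to be read against the shares over all tested genes. After DEN these were 29.2% higher and 26.7% lower in wild type, and 12% and 10.7% in knockout. Between genotypes under DEN they were 12.2% higher and 9.85% lower. The class I heavy chains, which pair with B2m, were mostly lower after DEN in wild type. Of 14 listed, 12 matched a symbol and 11 were tested, and 6 fell, 1 rose and 4 did not pass in wild type, and the median log2 fold change was -0.90. The classical H2-K1 had 1816, 1755 and 1704 CPM in the PBS wild-type and 873, 1007 and 866 in the DEN wild-type libraries and fell by 0.94 ± 0.18 (edgeR adjusted p 0.00023). H2-D1, the other classical gene matched, had 614, 635 and 592 and 544.6, 614 and 556 CPM in the same groups, which overlapped, and a log2 difference of -0.10. Under total-count scaling the difference of H2-D1 was 0.38 and called higher (edgeR adjusted p 0.02). H2-Q10, secreted by hepatocytes, fell by 1.52 in wild type (edgeR adjusted p 1.2e-05) and by 1.19 in knockout (0.001). In knockout 3 heavy chains fell and 8 did not pass, and without DENKO_309 only 1 fell. Under total-count scaling 4 rose and 2 fell in knockout, and 3 rose and 6 fell in wild type. These genes are near copies of one another and may share or lose reads, so their values are uncertain. Between genotypes under DEN, 2 of 11 were higher in the knockout, H2-T24 and H2-T23, with none without DENKO_141 and 1 without DENWT_996.

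Among 10 loading chaperones and peptide-trimming enzymes, 3 rose, 1 fell and 6 did not pass in wild type, with a median of -0.03. Of all tested genes, 55.8% were called in that comparison. Erap1, the aminopeptidase that trims peptides inside the endoplasmic reticulum, had 94.2, 88.97 and 108 CPM in the PBS wild-type and 51.3, 44.99 and 43.2 in the DEN wild-type libraries, which did not overlap. It fell by 1.06 ± 0.15 on the log2 scale (edgeR adjusted p 7e-05). Lnpep, an endosomal trimming peptidase, rose by 1.03 ± 0.23 (adjusted p 0.0019). In knockout 1 rose, 1 fell and 8 did not pass, with 0 to 2 rising and 0 to 1 falling when each library was left out in turn. Under total-count scaling 6 rose and 1 fell in wild type, and 4 rose and none fell in knockout. Under DEN, Erap1 was 0.63 ± 0.17 higher in the knockout (edgeR adjusted p 0.019), a call that ended without DENKO_141 (0.18) or DENWT_996 (0.072).

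The subunits common to both kinds of proteasome, with the assembly factors, made up a list of 16, of which 3 rose, 2 fell and 11 did not pass in wild type, with a median of 0.17. Pomp, the maturation factor used in assembly, was among the 2 that fell, by 0.65 ± 0.14 on the log2 scale (edgeR adjusted p 0.0012), and was not called under total-count scaling. Under that scaling 12 of the 16 were called higher and none lower. Leaving out DENWT_995 or PBSWT_545 left 1 that rose, and leaving out DENWT_996, PBSWT_542 or PBSWT_545 left 1 that fell. In knockout 1 fell and 15 did not pass, with 0 to 2 falling when each library was left out in turn, and 4 rose and none fell under total-count scaling.

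Interferon-gamma itself was barely detected, with 0 to 3 Ifng counts per library, too few to test. Irf1, a factor that binds the ISRE and drives Psmb9 and Tap1 in the textbook account, was called after DEN in neither genotype, with log2 differences of -0.47 in wild type (edgeR adjusted p 0.074) and 0.64 in knockout (0.064). Under DEN it was 0.70 higher in the knockout (adjusted p 0.046), a call kept in 5 of 11 fits, with adjusted p from 0.028 to 0.39. Irf2, which binds the same element, fell by 1.39 in wild type (edgeR adjusted p 1.8e-05). Of 18 tested genes of interferon signalling and class I regulation, 4 rose and 4 fell in wild type, and 5 rose and 1 fell in knockout. Under DEN 7 of them were higher in the knockout and none lower, with none without DENKO_141 and 4 without DENWT_996. The number that rose in the knockout was 1 without DENKO_309, 2 without DENKO_141 or PBSKO_154 and 3 without PBSKO_544, and 0 to 1 fell. The number that rose in wild type was 2 without DENWT_996. Under total-count scaling 8 rose and 3 fell in wild type and 11 rose and none fell in knockout, and 5 were higher in the knockout under DEN.

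Interferon-induced GTPases and antiviral genes, which share inducers with the immunosubunits, fell widely in wild type. Of 21 tested, 15 fell, 1 rose and 5 did not pass, and their median log2 fold change was -1.21, and without DENWT_996 there were 9 that fell. The number that rose was 0 to 2 when each library was left out in turn. Cxcl9, a chemokine induced by interferon-gamma, had 12.1, 10.8 and 11.02 CPM in the PBS wild-type and 0.983, 0.990 and 1.04 in the DEN wild-type libraries and fell by 3.48 ± 0.48 (edgeR adjusted p 0.00016). In knockout 1 rose, 1 fell and 19 did not pass, with a median of 0.24, and with 0 to 3 rising and 0 to 2 falling when each library was left out in turn. Under total-count scaling 9 fell and 2 rose in wild type, and 4 rose and none fell in knockout. Between genotypes under DEN 14 of 21 were higher in the knockout and none lower, with a median of 1.26. That number was 2 without DENKO_141, 6 without DENWT_996 and 9 without DENWT_995. Gbp7, an interferon-induced GTPase, was 1.89 ± 0.24 higher in the knockout under DEN (edgeR adjusted p 6e-04), and its call held in each of the 11 fits.

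Some leukocyte markers were lower in the DEN wild-type libraries, as the immunosubunits were, and others were not. The summed CPM of 6 pan-leukocyte markers was 142 to 152 in PBS wild type, 50.1 to 85.9 in DEN wild type, 150 to 154.1 in PBS knockout and 145 to 162 in DEN knockout. That of 11 T and NK cell markers was 6.32 to 10.9, 1.17 to 1.56, 5.85 to 9.34 and 4.3 to 6.25 in the same order, with no marker at 0 in a whole group. In wild type 7 of 8 tested T and NK markers fell, 4 without DENWT_996, and 1 of 6 pan-leukocyte markers, Lcp1, fell. In knockout, where Psmb8 and Psmb10 fell, 2 pan-leukocyte markers rose and none fell, with a median log2 fold change of 0.78. No pan-leukocyte marker rose in the fits without PBSKO_154, PBSKO_544 or PBSWT_545, and the 2 calls also needed both DEN knockout libraries. Over the 11 fits the log2 fold change ran from 0.763 to 0.91 for Ptprc and from 0.65 to 0.958 for Laptm5. Among T and NK markers 1 rose, Cd8a, and 1 fell, Cd4, in knockout, and none rose without PBSKO_154, PBSKO_544 or PBSKO_549. The call of Cd8a also depended on DENKO_141, and that of Cd4 on DENKO_309. Over the 11 fits the log2 fold change ran from 1.31 to 2.27 for Cd8a and from -2.63 to -1.57 for Cd4. Under total-count scaling 5 T and NK markers fell in wild type, and 4 pan-leukocyte markers rose in knockout. Under DEN, 5 of 8 T and NK markers and 5 of 6 pan-leukocyte markers were higher in the knockout, against none and 1 without DENKO_141, 3 and 2 without DENKO_309, and 2 and 3 without DENWT_996. The part of these cells in the levels of the 10 genes was not tested.

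Kupffer cell markers, the resident macrophages of liver, summed to 201 to 456 CPM in PBS wild type and 117 to 255 in DEN wild type, and to 295 to 427 and 322 to 358 in the knockout, all 9 being detected in every group. Of the 9, 5 fell and 1, Marco, rose in wild type, and leaving out any of 4 libraries, DENWT_995, DENWT_996, PBSWT_542 or PBSWT_545, left 3 that fell, while leaving out PBSWT_541 gave 8. Under total-count scaling 2 fell. Summed monocyte and neutrophil markers were higher after DEN, from 4.43 to 4.66 CPM in PBS wild type, where Ngp, Camp and Elane were at 0, to 35.2 to 93.8 in DEN wild type. In the knockout they went from 4.92 to 11.5 CPM, with Camp at 0, to 65.1 to 75.4, with Ngp and Camp at 0. Of 7 tested, 6 rose in wild type and 4 in knockout. The wild-type number was 4 without DENWT_307, PBSWT_541 or PBSWT_545. In knockout the call of the marker Csf3r depended on DENKO_309, and its log2 fold change ran from 1.52 to 1.78 over the 11 fits. Dendritic cell markers summed to 5.14 to 6.76 CPM in PBS wild type and 6.13 to 6.97 in DEN wild type, and to 5.43 to 7.4 and 11.6 to 11.7 in the knockout. Here, too, a part in the levels of the 10 genes was not tested.

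The genes whose profile over the 11 libraries was nearest to that of 3 of the 10 were found by the root mean square difference of centred log2 CPM. For Psmb8, whose own root mean square around its mean was 0.789, they were Rsu1 at 0.072, Bst2 at 0.105 and Phyh at 0.122. Bst2 encodes the antiviral membrane protein tetherin, and Phyh a peroxisomal enzyme of branched-chain fatty acid oxidation. For Tap1 (0.693) they were Abhd4 at 0.126, Nek3 at 0.15 and Asap1 at 0.159, and for Nlrc5 (0.463) they were Zfp292 at 0.143, Hist3h2a at 0.157 and Csf1 at 0.161. The nearest genes of Psmb8 fell by 1.88 to 1.94 in wild type, and those of Tap1 rose by 1.25 to 1.56, on the log2 scale by edgeR. Such likeness follows from how these genes were chosen, over the same libraries, and is no separate evidence. None of the 10 genes was among these 9.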

How the data were processed

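The deposited values are raw read counts by gene symbol, in 1 file for each of 12 libraries. The submitters' processing notes name bcl2fastq, TopHat2, HTSeq and build mm9, without versions; for the annotation and the strand setting the sources used here give nothing. The 5 tally lines of each file, which name no gene and held 61.4% to 78.7% of the listed counts, entered neither library sizes nor tests.

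Counts of 11 libraries were fitted in R 4.3.3 with edgeR 4.0.16 (robust quasi-likelihood F test, TMM scaling, filterByExpr by group), in 1 fit with a coefficient per group. There were 5 comparisons, each adjusted by Benjamini and Hochberg over 13255 genes. The standard error of a log2 fold change is its size over the root of F. TMM factors were 1.13 to 1.30 in DEN and 0.858 to 0.901 in PBS libraries. Ratios had 1 added to each count. DESeq2 1.42.0, limma-voom 3.58.1, other scalings, no filter, fits of only the groups compared and leaving out each library were alternatives. The tests were tried on simulated data.

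The 10 genes and all lists were chosen with earlier results of these data known. Named from other lists were at most 4 called genes per comparison with the largest changes, and always the counterparts Psmb5, Psmb6 and Psmb7, Psme3, Psme4, Irf1, Ifng, H2-K1, H2-D1 and Trim21. Not every gene this rule selects is printed, and 1 result is not reported here. Transcript lengths and overlaps come from GENCODE M21 on GRCm38.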

Additional observations from a re-analysis of the deposited data

Results flagged for a closer look

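The DEN response of the knockout differed from that of the wild type, by edgeR's interaction test, for 5 of the 10 genes. Of all tested genes, 6.58% were called in this test. The difference, knockout minus wild type on the log2 scale, was 1.263 for Psmb8, 1.279 for Psmb9, 1.189 for Psmb10, 0.7271 for Tap2 and 0.7072 for Nlrc5. None of the 5 was called without DENKO_141, 1 of the 2 DEN knockout libraries, where the differences were 1.10, 1.17, 0.905, 0.557 and 0.712 in the same order.

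The library labelled heterozygote, which entered no test, had 94.44 CPM of Tap1 and 30.3 CPM of Nlrc5, above every PBS library for both genes. Its Nlrc5 level lay below the 5 other DEN libraries and its Tap1 level above them.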

How the results depend on the processing

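No paired analysis was possible because no library number was shared between groups. Of the 10 genes, the 2 higher and 8 lower calls after DEN in wild type were the same in number whichever of the 11 libraries was left out, and under every other alternative run except total-count scaling, which gave 5 lower. There Tap2 (0.0128), Tapbp (0.0303), Psmb7 (0.123) and H2-D1 (0.382) had the other sign, and of these only H2-D1 was called (edgeR adjusted p 0.02). Total counts also gave 4 higher and 0 lower of the 10 in knockout, with 5297 genes called in all, and 3 in the interaction. DESeq2 called 1465 genes in the interaction. The causes were not tested. Another 49 sign changes concerned values called in neither fit. Leaving out each library gave 0 to 2 lower members and 1161 to 3168 genes called for DEN in knockout, 1 to 7 higher members and 256 to 3356 genes for knockout over wild type under DEN, and 0 to 6 members and 26 to 1161 genes in the interaction. Fits that left 1 DEN knockout library assume that it varies like the other groups.

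For the ratios, leaving out each library gave -1.117 to -0.902 for Psmb9 to Psmb6 and -0.874 to -0.666 for Psme1 to Psme3, with adjusted exact permutation p up to 0.05 for both. Wild type alone gave log2 ratio differences of -2.249 (Psmb8/Psmb5), -1.801 (Psmb9/Psmb6), -1.721 (Psmb10/Psmb7), -1.38 (Psme1/Psme3), 2.895 (Tap1/Psmb9), 1.834 (Tap1/Tap2) and -0.367 (Psmb8/Psmb9), and knockout alone -0.458, -0.218, -0.496, -0.2, 1.539, 1.044 and -0.399. With 3 against 3 or 2 against 3 libraries an exact test cannot go below 0.1, so these give no call. Pseudocounts of 0.5 and 5 changed no call. With 0 to 3 counts of Ifng per library, a difference in it was not detectable at this depth.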
